A study of Mus musculus with 2 samples.

Results

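The axon guidance genes of the Slit, Robo, netrin and semaphorin systems were followed through the cells of embryonic mouse eyecups. The 10 genes were *Slit1*, *Slit2*, *Robo1*, *Robo2*, *Robo3*, *Ntn1*, *Dcc*, *Nrp1*, *Plxna2* and *Sema3a*, chosen by symbol from the 31053 genes counted in each library, and each was found once. The samples were eyecups at E13.5, holding retina, lens and blood, and single-cell RNA sequencing with a 3′ kit gave 1 control library and 1 DKO library. The control embryo carried the genotype Six3+/-;Six6+/-, so each of these transcription factor genes was present there in a single copy. The DKO embryo, a littermate, carried Six3F/F;Six6-/-;a-Cre, in which *Six6* is lost from every cell and *Six3* is deleted by a Cre that a retinal enhancer of *Pax6* drives in the peripheral retina. Central retinal cells and lens cells of the DKO library may therefore keep *Six3*. Since each genotype had 1 library from an embryo, no test between genotypes was possible. Genotype, library preparation and depth cannot be told apart, and the values in parentheses are 95% intervals that hold counting error alone.

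Slit proteins are secreted ligands that repel axons through Robo receptors. Netrin-1, the product of *Ntn1*, is a secreted cue that attracts axons through the receptor DCC, and semaphorin 3A repels axons through a complex of a neuropilin, which binds the ligand, and a plexin, which carries the signal inward. In the retina, ganglion cells are the neurons that send axons to the brain. Slit signalling through ROBO2 helps to keep these axons on course within the retina, and DCC is needed for them to leave the eye at the optic disc, where netrin-1 is made.

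RefSeq sequence upstream of the start site is given for *Slit2*, *Robo3*, *Nrp1* and *Plxna2*, since *Slit2* had the lowest log2 ratio of DKO to control among the members in ganglion-like cells and the other 3 passed 2-fold between the genotypes in at least 1 cell class. Each stretch is from build GRCm38.p6, runs 5′ to 3′ on the strand of its gene and ends at the RefSeq start or at an annotated exon before it. The *Slit2* stretch is chr5:47982905-47983137 on the plus strand, the *Robo3* stretch chr9:37433247-37433425 on the minus strand, the *Nrp1* stretch chr8:128358823-128359072 on the plus strand and the *Plxna2* stretch chr1:194619579-194619824 on the plus strand. The *Nrp1* and *Plxna2* stretches lie within the annotated spans of these genes given below, so they are upstream of a RefSeq start and not of the whole gene. Capitals mark the homeodomain core TAAT, the GC box GGGCGG and the TATA box TATAAA on either strand.
Slit2: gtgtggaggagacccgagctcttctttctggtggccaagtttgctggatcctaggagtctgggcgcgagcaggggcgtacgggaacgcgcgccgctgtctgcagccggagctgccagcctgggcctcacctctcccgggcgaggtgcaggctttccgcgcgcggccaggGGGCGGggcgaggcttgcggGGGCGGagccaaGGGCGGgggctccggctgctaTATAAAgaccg
Robo3: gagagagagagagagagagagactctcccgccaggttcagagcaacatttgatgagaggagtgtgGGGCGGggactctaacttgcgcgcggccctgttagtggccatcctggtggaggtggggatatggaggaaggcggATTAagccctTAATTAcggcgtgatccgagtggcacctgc
Nrp1: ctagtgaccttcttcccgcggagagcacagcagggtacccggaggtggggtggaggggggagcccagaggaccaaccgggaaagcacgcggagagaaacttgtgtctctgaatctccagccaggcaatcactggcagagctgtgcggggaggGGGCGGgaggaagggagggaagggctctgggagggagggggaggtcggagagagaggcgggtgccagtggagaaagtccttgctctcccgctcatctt
Plxna2: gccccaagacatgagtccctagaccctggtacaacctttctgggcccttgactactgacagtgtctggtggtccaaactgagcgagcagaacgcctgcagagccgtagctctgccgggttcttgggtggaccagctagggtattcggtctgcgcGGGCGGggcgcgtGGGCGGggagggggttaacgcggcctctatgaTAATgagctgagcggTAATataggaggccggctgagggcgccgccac
In these letters *Slit2* had 3 GC boxes and 1 TATA box, *Robo3* had 1 GC box and 3 homeodomain cores, of which a pair overlaps, *Nrp1* had 1 GC box, and *Plxna2* had 2 GC boxes and 2 homeodomain cores. Among the 250-base stretches of all 32851 promoters of the table, 54.9% held the homeodomain core, 32.7% the GC box and 12.4% the TATA box. TGATAC, a core that homeodomains like that of Six3 can bind, was in none of these 4 stretches, in 1 of the 3 entries of *Robo2*, and in 4.64% of all promoters. A match describes letters and is no evidence of binding. For *Robo1*, *Robo2* and *Sema3a* the table also held entries, which are not printed, and for *Slit1* and *Ntn1* it gave none. Whether it held an entry for *Dcc* was not examined, for the reason given with the processing of the data.

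On mm10 the genes lie on 8 chromosomes, with *Robo1* and *Robo2* both on chromosome 16 and *Slit2* and *Sema3a* both on chromosome 5. *Slit1* covers chr19:41600257-41743665 on the minus strand, *Slit2* chr5:47983138-48307733 on the plus strand, *Robo1* chr16:72308306-73046095 on the plus strand and *Robo2* chr16:73891839-74411825 on the minus strand. *Robo3* covers chr9:37415669-37433246 on the minus strand, *Ntn1* chr11:68209364-68400823 on the minus strand, *Nrp1* chr8:128358604-128503363 on the plus strand, *Plxna2* chr1:194618218-194816869 on the plus strand and *Sema3a* chr5:13125414-13602565 on the plus strand, while *Dcc* lies on chromosome 18. None overlapped a protein-coding gene in the annotation (GENCODE M21), but noncoding models on the same strand overlapped *Slit2*, *Robo2*, *Plxna2*, *Sema3a*, *Nrp1* and *Ntn1*, and reads of the gene and of such a model may not be separable.

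After filtering, 9822 control and 12146 DKO cells were kept, with medians of 7620 and 5879 UMIs (unique molecular identifiers, which count captured RNA molecules) per cell, and 22 barcode sequences occurred in both libraries. Clusters were named from marker genes and carry the word like, because the names were rebuilt here. The classes held 3745 control and 2679 DKO naïve progenitor-like cells, 1407 and 1779 neurogenic progenitor-like cells, 952 and 2119 ganglion-like cells, 578 and 953 cells of a margin and pigment epithelium-like cluster (margin-like below), and 414 and 405 lens-like cells. The ganglion-like class had each of its 12 ganglion markers at a higher level than the remaining cells, and the margin-like cluster all 8 pigment epithelium markers, with ciliary margin genes such as *Gja1* and *Wls* also among its 10 leading genes. In naïve-like cells *Six6* had 365 CPM in control and in DKO 47.7 CPM in subclusters with *Six3* below 50% of control and 51 CPM in the other ones. The *Six6* allele lacks the part that codes for the homeodomain, and Cre removes exon 1 of *Six3*, so 3′ counts from outside these parts measure the RNA that is left and do not check the deletions themselves. *Six3* in margin-like cells had 236 CPM in control and 68.4 and 320.4 CPM in the same sets of DKO subclusters. Levels are UMIs of a gene per 1000000 UMIs of the cells in a class (CPM). A 3′ count depends on the gene, so levels are compared between cells and not between genes.

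Most members differed widely between cell classes. Among the 5 classes *Robo2*, *Nrp1* and, in control, *Slit2* were highest in ganglion-like cells, *Sema3a* in lens-like cells, *Plxna2* in naïve-like cells, *Robo1* in neurogenic-like cells and *Ntn1* in margin-like cells. In DKO, *Plxna2* in naïve-like and margin-like cells, *Robo1* in neurogenic-like and ganglion-like cells and *Ntn1* in margin-like and naïve-like cells had overlapping intervals. Against control, 3 members were at or past 2-fold higher in DKO margin-like cells (*Dcc*, *Nrp1* and *Plxna2*), 2 in naïve-like cells (*Dcc* and *Sema3a*), 2 in neurogenic-like cells (*Nrp1* and *Plxna2*) and 2 in ganglion-like cells (*Robo3* and *Plxna2*). None was at or past 2-fold lower in any of the 5 classes, and none passed in lens-like cells.

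**Figure D1:**
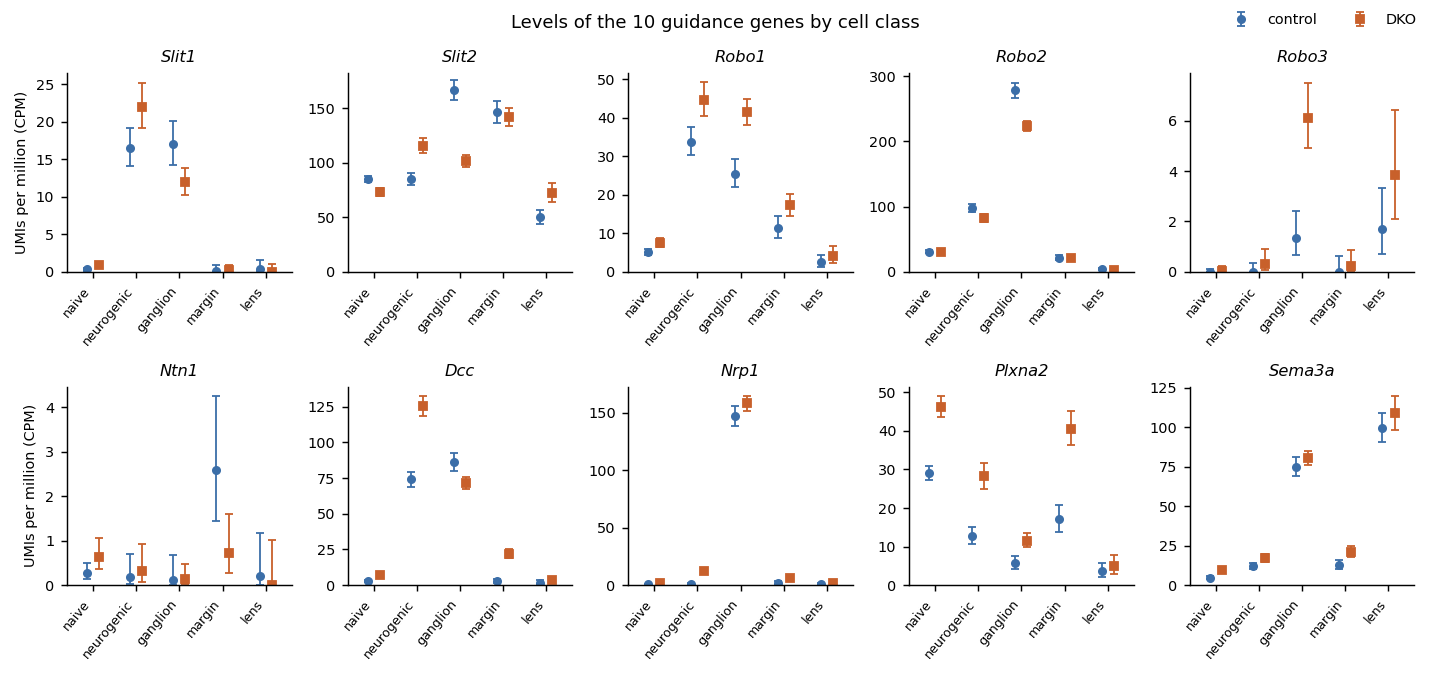
Level of each of the 10 genes (CPM, linear axis from 0) in 5 cell classes, with circles for the control library, squares for the DKO library and bars for exact 95% Poisson intervals of counting error. *Robo2* and *Nrp1* were highest in ganglion-like cells of both libraries, *Sema3a* in lens-like cells, and *Dcc* was at 2.58 CPM in control and 22 CPM in DKO margin-like cells.

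A gene entered the count of a class with at least 50 UMIs over both libraries, and it counted as higher or lower at or past 2-fold. Of the 10 members, 7 entered in naïve-like cells and 2 of them were higher, where 2.37% of the 12529 genes entered were higher. In neurogenic-like cells 8 entered and 2 were higher, against 3.35% of all genes. In ganglion-like cells 9 entered and 2 were higher, against 4.02%. In margin-like cells 7 entered and 3 were higher, against 2.77%, and in lens-like cells 2 entered and none was higher, against 3.08%. The shares of all genes that were lower were 0.982%, 1.51%, 1.25%, 1.06% and 1.43% in the same order. *Robo3* and *Plxna2* in ganglion-like, *Nrp1* in neurogenic-like and *Dcc* and *Nrp1* in margin-like cells had under 50 UMIs in control and entered only with their DKO counts, so these counts are a description and no support for a difference. With counting intervals alone, 5 of 7 members were above 0 and 1 below in naïve-like cells, 7 of 8 above and 1 below in neurogenic-like cells, 4 of 9 above and 4 below in ganglion-like cells, and 5 of 7 above and none below in margin-like cells. Of all genes, intervals lay above 0 for 26.4%, 22.6%, 25.1% and 19.8% and below 0 for 17.7%, 19.2%, 16.6% and 14.7% in the same 4 classes. The median log2 ratio of the members entered was 0.67, 0.48, 0.10, 0.71 and 0.33 in naïve-like, neurogenic-like, ganglion-like, margin-like and lens-like cells, where the median of all genes was 0.02, 0.02, 0.05, 0.01 and 0.21. With the libraries merged without integration the counts of higher members were 0, 1, 0 and 3 in naïve-like, neurogenic-like, ganglion-like and margin-like cells, and the medians were 0.18, -0.16, -0.13 and 0.22. The naïve-like count was also 0 at resolution 1, and the ganglion-like count was 0 in 5 alternatives. The shares of all genes above belong to the main setting, and none is given for the alternatives.

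**Figure D2:**
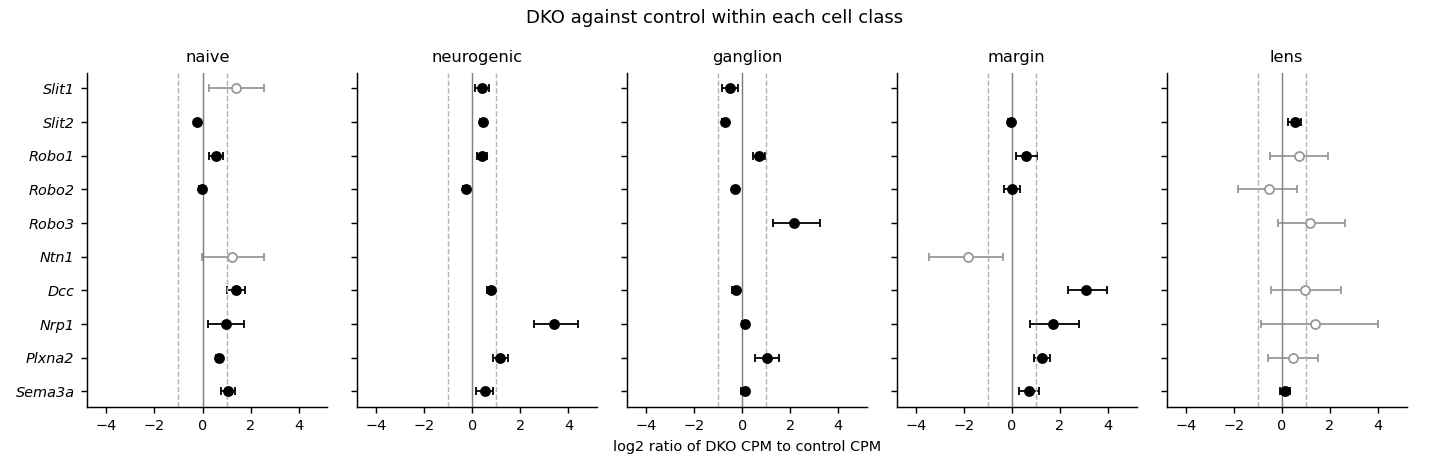
Log2 ratio of the DKO level to the control level for each gene in 5 cell classes, with bars for the 95% interval of counting error and dashed lines at 2-fold in either direction. Filled points had at least 50 UMIs over both libraries and open points fewer, and the points furthest to the right are *Nrp1* in neurogenic-like cells (3.41) and *Dcc* in margin-like cells (3.09).

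Of the ligands, *Slit2* was detected in every class. It had 167 (158 to 176) CPM in control and 102 (96.6 to 107) CPM in DKO in ganglion-like cells, a log2 ratio of -0.71 (-0.82 to -0.61). Both main subclusters had it lower in DKO, with a log2 ratio of -0.54 (-0.72 to -0.37) in the one led by *Sncg* and -0.48 (-0.65 to -0.32) in the one led by *Cntn2* and *Isl1*. In neurogenic-like cells the order was opposite, with 85.3 (79.8 to 91.2) CPM in control and 116 (109 to 123) CPM in DKO, a log2 ratio of 0.44 (0.31 to 0.57). Control cells thus had their highest *Slit2* level in the ganglion-like class, and DKO cells in the margin-like class. Margin-like cells had 146 (137 to 157) CPM in control and 142 (134 to 150.3) CPM in DKO, so the intervals of the libraries overlapped there, and naïve-like cells had 85.1 (82.1 to 88.1) CPM in control and 73.5 (70.1 to 77) CPM in DKO, a log2 ratio of -0.21 (-0.30 to -0.13). Lens-like cells were lowest of these classes in both libraries, with 50.3 (44.1 to 57) CPM in control and 72.6 (64.1 to 81.9) CPM in DKO. With the libraries merged without integration the neurogenic-like log2 ratio was -0.24. In DKO the naïve-like and lens-like levels had overlapping intervals, as did the neurogenic-like and naïve-like levels in control. The neurogenic-like *Slit2* ratio was 0.37 (0.21 to 0.53) in the cluster led by *Fam110a* and 0.20 (-0.04 to 0.44) in the one led by *Atoh7* and *Mybl1*. A subcluster led by *Neurod1* and *Uncx* held 201 control and 843 DKO cells, 83.6% and 74.4% of them neurogenic-like. There *Uncx* had 78.2 CPM in control and 396 CPM in DKO, and *Eomes* 0 and 126 CPM. The part of this uneven subcluster in the neurogenic-like ratios of the members was not tested.

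*Slit2* also varied among naïve-like cells. The subcluster led by *Aldh1a1* and *Crhbp*, with genes of the ciliary margin, had 132 (123 to 141) CPM in control and 134 (125 to 144) CPM in DKO, with overlapping intervals. The subcluster led by *Ung* and *Pmepa1* had 69.5 (62.9 to 76.6) CPM in control and 37.9 (31 to 45.8) CPM in DKO, a log2 ratio of -0.88 (-1.2 to -0.56). Of 6 naïve-like subclusters the interval lay below 0 in 3, among them the largest, led by histone genes, at -0.82 (-1.04 to -0.60), and it spanned 0 in the other 3.

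*Slit1*, the second Slit ligand, was found in fewer classes. It had 16.5 (14.1 to 19.2) CPM in control and 22 (19.1 to 25.2) CPM in DKO in neurogenic-like cells and 17 (14.3 to 20.1) CPM in control and 11.9 (10.2 to 13.8) CPM in DKO in ganglion-like cells, and at most 0.855 CPM in naïve-like, margin-like and lens-like cells of either library. Its log2 ratio was 0.41 (0.11 to 0.71) in neurogenic-like and -0.51 (-0.84 to -0.18) in ganglion-like cells. Like *Slit2*, it was higher in DKO in neurogenic-like and lower in the ganglion-like cells. Its neurogenic-like ratio was 0.08 (-0.30 to 0.46) in the *Fam110a* cluster and 0.82 (0.31 to 1.32) in the *Atoh7* and *Mybl1* cluster. In the ganglion-like cluster led by *Sncg*, *Nefl* and *Gap43*, genes of axons and neurofilaments, *Slit1* had 23.1 (18.4 to 28.7) CPM in control and 10.7 (8.64 to 13.2) CPM in DKO. In the other ganglion-like cluster, led by *Elavl4* and *Cntn2*, it had 12.2 (9.24 to 15.9) CPM in control and 13.4 (10.7 to 16.5) CPM in DKO, so the lower level lay in the *Sncg* cluster.

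Among the receptors, *Robo2* is the one that ganglion cell axons need to answer Slit within the retina, and of the 5 classes it was highest in ganglion-like cells of both libraries. It had 278 (267 to 289.8) CPM in control and 223 (216 to 231) CPM in DKO in ganglion-like cells, and 97.9 (91.9 to 104) CPM in control and 82 (76.3 to 87.9) CPM in DKO in neurogenic-like cells. Naïve-like cells had 31 (29.2 to 32.9) CPM in control and 30.8 (28.6 to 33.1) CPM in DKO, margin-like cells 21.9 (18.2 to 26) CPM in control and 21.6 (18.6 to 25.1) CPM in DKO and lens-like cells 4.0 and 2.74 CPM. The order of the 5 classes was the same in both libraries, with no overlap between neighbouring intervals. Its log2 ratio was -0.32 (-0.40 to -0.24) in ganglion-like and -0.26 (-0.39 to -0.12) in neurogenic-like cells, both below 0 and short of 2-fold, and its intervals spanned 0 in naïve-like and margin-like cells. In the main ganglion-like subclusters the ratio was nearer 0, at -0.16 (-0.27 to -0.05) in the *Sncg* and -0.11 (-0.24 to 0.02) in the *Cntn2* subcluster, and over the alternatives the ganglion-like ratio lay between -0.36 and -0.13.

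*Robo1*, the other Slit receptor, followed a different order. Its level was 33.8 (30.3 to 37.5) CPM in control and 44.7 (40.6 to 49.2) CPM in DKO in neurogenic-like cells and 25.5 (22.1 to 29.2) CPM in control and 41.4 (38.2 to 44.8) CPM in DKO in ganglion-like cells, with 11.4 (8.78 to 14.4) CPM in control and 17.2 (14.5 to 20.3) CPM in DKO in margin-like and 5.08 (4.38 to 5.87) CPM in control and 7.52 (6.45 to 8.72) CPM in DKO in naïve-like cells. The DKO level was above the control level in all 4, with log2 ratios from 0.40 in neurogenic-like to 0.70 in ganglion-like cells, and no class passed 2-fold. Among ganglion-like cells the ratio lay in the *Sncg* cluster, which had 26.8 (21.7 to 32.8) CPM in control and 54.2 (49.3 to 59.4) CPM in DKO, a log2 ratio of 1.02 (0.69 to 1.35). In the *Elavl4* cluster *Robo1* had 24.5 (20.1 to 29.4) CPM in control and 24.9 (21.2 to 29.1) CPM in DKO. *Robo1* and *Robo2* thus differed in opposite directions between the libraries in the ganglion-like class. In neurogenic-like cells the log2 ratio of *Robo1* was -0.28 with the libraries merged without integration. Its interval spanned 0 in both neurogenic-like clusters, at 0.20 (-0.04 to 0.45) in the *Fam110a* and 0.25 (-0.17 to 0.67) in the *Atoh7* and *Mybl1* cluster.

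*Robo3*, a divergent receptor that in other neurons lets commissural axons cross the midline, was rare in control cells, with 22 UMIs in the whole library. It had 11 UMIs in control and 91 UMIs in DKO ganglion-like cells, which are 1.35 (0.676 to 2.42) CPM in control and 6.12 (4.93 to 7.51) CPM in DKO, a log2 ratio of 2.18 (1.27 to 3.23). The 91 UMIs were not spread over the class. A subcluster led by *Tac1* and *Crabp1* held 74 of them at 27.3 CPM, and this subcluster took up 19.8% of DKO and 2.73% of control ganglion-like cells (419 and 26 cells). Its *Pou4f2* level, a defining ganglion cell gene, was 33.0 CPM in DKO, where the subcluster led by *Cntn2* and *Isl1* had 207 CPM. In that subcluster and the one led by *Sncg*, which together held most ganglion-like cells, *Robo3* had 6 and 5 UMIs in control and 2 UMIs each in DKO. Of the 2 ganglion-like clusters, the *Elavl4* cluster held 72 of the 91 UMIs. There *Pou4f2* had 358 CPM in control and 142 CPM in DKO, and *Uncx* 43.2 and 277 CPM. The part of this uneven makeup in the *Elavl4* cluster ratios of *Slit1*, *Robo1*, *Dcc*, *Nrp1* and *Sema3a* was not tested. Without subclusters that nearly lacked control cells, *Robo3* was under 50 UMIs and no member of the class was called. *Robo3* entered in 5 of the alternatives, at 2.13 to 2.18. Lens-like cells had 8 and 14 *Robo3* UMIs, or 1.68 (0.726 to 3.31) CPM in control and 3.84 (2.1 to 6.44) CPM in DKO, with overlapping intervals.

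A cluster found in the DKO library alone, led by *Rspo3*, *Lhx9* and *Tbr1* and named forebrain neuron-like from 8 of 8 markers, held 94 of the 226 *Robo3* UMIs of the DKO library. *Robo3* had 35.8 (29 to 43.9) CPM in these 590 cells, its highest level in any class. *Dcc* was at 173 (158 to 190.2) CPM there, also above its level in the 5 classes, and *Plxna2* at 57.2 (48.4 to 67.1) CPM. *Robo2* had 29 (22.8 to 36.3) CPM and *Slit2* 30.1 (23.8 to 37.5) CPM, both under their levels in DKO ganglion-like cells. *Nrp1* had 83.5 (72.8 to 95.3) CPM, *Robo1* 40.0 (32.7 to 48.5) CPM, *Sema3a* 20.2 (15.1 to 26.4) CPM and *Slit1* 13.3 (9.3 to 18.6) CPM, and *Ntn1* had no UMI. The forebrain neuron-like cells therefore held less *Slit2* and *Robo2* and more *Dcc*, *Robo3* and *Plxna2* than the DKO ganglion-like cells.

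**Figure D3:**
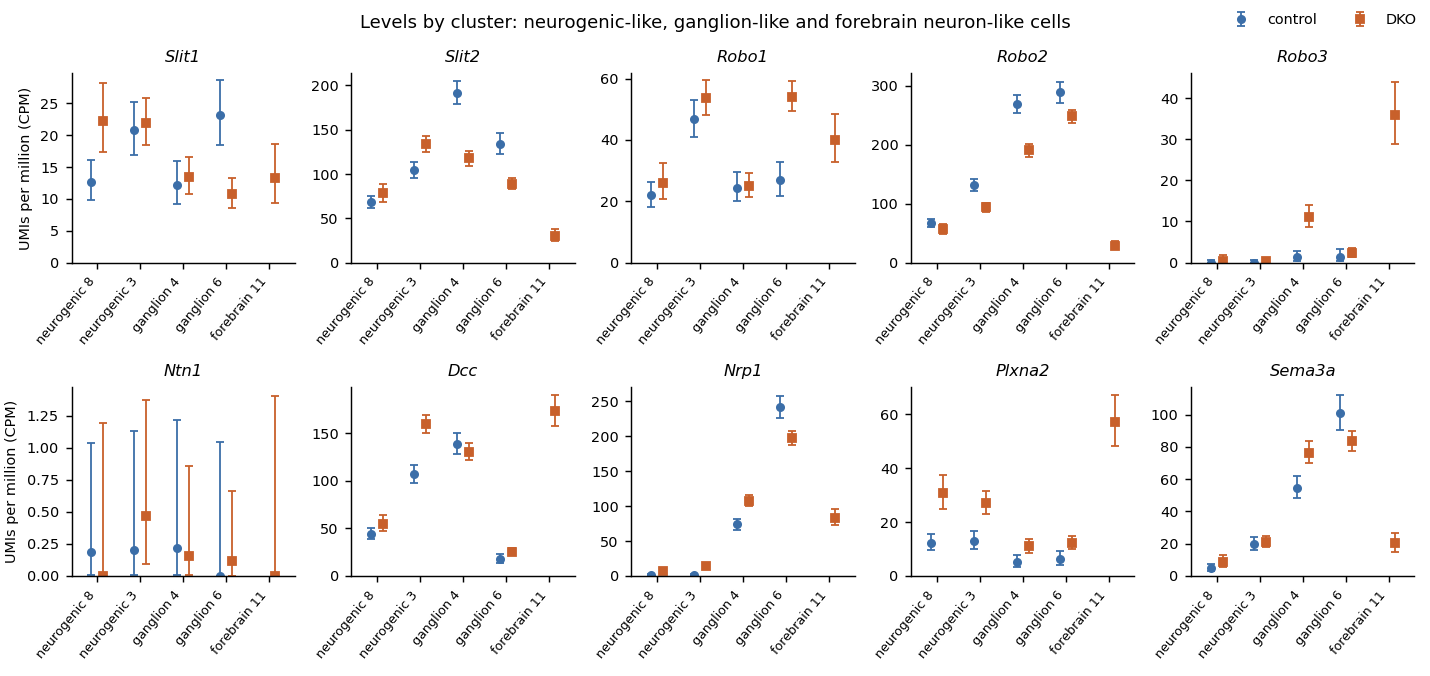
Level of each gene (CPM, linear axis from 0) in 2 neurogenic-like clusters, 2 ganglion-like clusters and the forebrain neuron-like cluster, numbered as clusters, with exact 95% Poisson intervals. The clusters led by *Atoh7* and *Mybl1* (8), *Fam110a* (3), *Elavl4* (4) and *Sncg* (6) hold cells of both libraries, and the forebrain neuron-like cluster (11) has 590 DKO and no control cells, with *Robo3* at 35.8 CPM.

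*Ntn1*, the netrin ligand, was rare throughout, with 31 UMIs in the control and 33 in the DKO library. Margin-like cells had 15 UMIs in control and 6 in DKO, which are 2.58 (1.44 to 4.26) CPM in control and 0.733 (0.269 to 1.6) CPM in DKO, a log2 ratio of -1.82 (-3.47 to -0.37) that did not reach 50 UMIs. Within that cluster the pigmented subcluster led by *Pmel* and *Trpm1* had 12 of the control UMIs in 71 cells and 3 of the DKO UMIs in 518 cells. Ganglion-like, neurogenic-like and lens-like cells had at most 3 UMIs in either library. A difference in *Ntn1* was not detectable in those 3 classes at this depth.

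*Dcc*, the netrin receptor, differed most in the margin-like cells. It had 15 UMIs in control and 180 in DKO there, which are 2.58 (1.44 to 4.26) CPM in control and 22 (18.9 to 25.5) CPM in DKO, a log2 ratio of 3.09 (2.33 to 3.96). The higher level was found in both main subclusters. The one led by *Aldh1a1* and *Wfdc1* had 2.82 (1.5 to 4.83) CPM in control and 17.5 (12.9 to 23.1) CPM in DKO, and the pigmented one led by *Pmel* had 2.41 (0.292 to 8.72) CPM in control and 26.4 (21.9 to 31.5) CPM in DKO, from 2 UMIs in control. Naïve-like cells had 2.72 (2.21 to 3.31) CPM in control and 7.14 (6.09 to 8.3) CPM in DKO, a log2 ratio of 1.39 (1.03 to 1.76), and neurogenic-like cells 74.2 (69 to 79.6) CPM in control and 125 (118 to 133) CPM in DKO, a log2 ratio of 0.76 (0.62 to 0.89). Only in ganglion-like cells, among the 4 retinal classes, was the DKO level lower, with 86.3 (80.0 to 92.9) CPM in control and 71.5 (67.2 to 75.9) CPM in DKO, a log2 ratio of -0.27 (-0.41 to -0.13). Neither ganglion-like cluster was lower beyond counting error, at -0.09 (-0.24 to 0.06) in the *Elavl4* and 0.50 (0.09 to 0.93) in the *Sncg* cluster. The *Sncg* cluster, with less *Dcc*, had 367 control and 1074 DKO cells, and the part of this in the class ratio was not tested. The naïve-like difference was not found in every subcluster. The largest, led by histone genes, had 28 UMIs in control and 16 in DKO, a log2 ratio of 0.07 (-0.92 to 1.0), while the *Aldh1a1* and *Crhbp* subcluster had 1.31 (0.65 to 2.0).

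The summed level of the 9 ciliary margin markers in margin-like cells was 1183 CPM in control and 2493 CPM in DKO, and that of the 8 pigment epithelium markers 858 and 1723 CPM, all detected in both. In the *Aldh1a1* subcluster alone the ratio of *Dcc* was 2.63 (1.72 to 3.64), and there *Gja1* had 214 CPM in control and 570.5 CPM in DKO and *Dct*, a pigment cell gene, 3.69 and 22.8 CPM. In naïve-like cells the ciliary margin markers summed to 289 CPM in control and 636 CPM in DKO, all 9 detected in both. The part of these markers in the *Dcc* results was not tested.

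The *Dcc* level differed between the clusters from progenitor to neuron. In the neurogenic-like cluster led by *Atoh7* and *Mybl1* it had 44.4 (39 to 50.4) CPM in control and 54.8 (46.9 to 63.7) CPM in DKO, and in the one led by *Fam110a* 107 (97.8 to 116) CPM in control and 159 (149.8 to 169) CPM in DKO. In the *Elavl4* ganglion-like cluster it was 139 (128 to 150.3) CPM in control and 131 (122 to 139.8) CPM in DKO, and in the *Sncg* cluster 18.1 (13.9 to 23.1) CPM in control and 25.5 (22.2 to 29.2) CPM in DKO. Of these neurogenic-like and ganglion-like clusters, the highest level was thus in the *Fam110a* cluster in DKO and in the *Elavl4* cluster in control. Among them, both libraries had their lowest level in the *Sncg* cluster. Merged without integration, the neurogenic-like log2 ratio was -0.18 and the naïve-like ratio 0.47, short of 2-fold, as was the naïve-like ratio at resolution 1 of the clustering (0.91). Over the alternatives the ganglion-like ratio of *Dcc* lay between -0.94 and -0.27 and the margin-like ratio between 2.29 and 3.25.

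*Nrp1*, the ligand-binding receptor of semaphorin 3A, had the largest ratio between genotypes of any member and class that entered. Ganglion-like cells held most of it, with 147 (139 to 156) CPM in control and 158 (152 to 165) CPM in DKO, a log2 ratio of 0.11 (0.00 to 0.21). Neurogenic-like cells had 12 UMIs in control and 118 in DKO, which are 1.17 (0.602 to 2.04) CPM in control and 12.4 (10.3 to 14.9) CPM in DKO, a log2 ratio of 3.41 (2.55 to 4.41). Of the 118 UMIs, 50 lay in the subcluster led by *Atoh7* and *Hes5* and 49 in the one led by *Neurod1* and *Uncx*, each with 1 UMI in control. The *Atoh7* and *Hes5* subcluster had 504 control and 598 DKO neurogenic-like cells. In that subcluster *Eomes*, one of the forebrain neuron markers, had 0 CPM in control and 30.7 CPM in DKO, and *Uncx* 12.3 and 65.3 CPM. Over the alternatives the ratio lay between 1.60 and 3.96.

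Summed markers of other cells also stood higher in DKO neurogenic-like cells. The 8 forebrain neuron markers summed to 139 CPM in control and 329 CPM in DKO, with 7 detected in each and *Neurod6* at 0 in both. The 12 ganglion markers summed to 1302 and 1622 CPM, but *Pou4f2* and *Isl1* were lower in DKO. In the *Fam110a* cluster *Pou4f2* had 205 CPM in control and 84.2 CPM in DKO, and *Isl1* 458 and 154 CPM. In the *Atoh7* and *Mybl1* cluster they had 29.7 and 14.5 CPM, and 71.0 and 28.1 CPM. The 8 neurogenic progenitor markers of the class summed to 5433 CPM in control and 3804 CPM in DKO. The part of these markers in the *Nrp1* result was not tested. In ganglion-like cells the forebrain neuron markers summed to 61.8 CPM in control, where *Eomes* was at 0, and 173 CPM in DKO, and their part in the *Robo3* and *Plxna2* results was likewise not tested.

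The ganglion-like level of *Nrp1* split by cluster. In the *Elavl4* cluster it had 73.8 (66.1 to 82.1) CPM in control and 108 (99.9 to 116) CPM in DKO, a log2 ratio of 0.55 (0.36 to 0.74), and in the *Sncg* cluster 242 (226 to 258) CPM in control and 197 (188 to 207) CPM in DKO, a log2 ratio of -0.29 (-0.41 to -0.17). Both libraries had the higher level in the *Sncg* cluster, and the gap between the clusters was wider in control. *Pou4f2* in the *Elavl4* cluster had 358 CPM in control and 142 CPM in DKO, and its part in the *Nrp1* ratio was not tested. Margin-like cells had 11 UMIs in control and 51 in DKO, which are 1.89 (0.945 to 3.39) CPM in control and 6.23 (4.64 to 8.2) CPM in DKO, a log2 ratio of 1.72 (0.76 to 2.81). In this class the pigmented subcluster led by *Pmel* held 71 control and 518 DKO cells. A mesenchyme-like subcluster led by *Col3a1* and *Col1a2* held 4 control and 32 DKO cells. The part of both subclusters in the margin-like ratios of *Nrp1*, *Plxna2* and the other members was not tested.

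*Plxna2*, a signalling plexin, was higher in DKO in each of the 4 main retinal classes. It had 29.1 (27.4 to 30.9) CPM in control and 46.3 (43.6 to 49.2) CPM in DKO in naïve-like cells, where the log2 ratio was 0.67 (0.55 to 0.79). In margin-like cells it had 17 (13.8 to 20.7) CPM in control and 40.5 (36.2 to 45.1) CPM in DKO, a log2 ratio of 1.25 (0.92 to 1.59), and in neurogenic-like cells 12.6 (10.5 to 15) CPM in control and 28.2 (24.9 to 31.8) CPM in DKO, a log2 ratio of 1.16 (0.85 to 1.47). Ganglion-like cells held less, with 5.66 (4.14 to 7.55) CPM in control and 11.6 (9.9 to 13.4) CPM in DKO, a log2 ratio of 1.03 (0.55 to 1.53). In the *Sncg* and *Cntn2* subclusters the intervals of the ratio spanned 0, at 0.68 (-0.02 to 1.44) and 0.68 (-0.16 to 1.53). The class ratio passed 2-fold in 13 of 13 alternatives in margin-like cells and in 6 of 12 in ganglion-like cells, and the naïve-like ratio lay between 0.16 and 1.15. The order of the classes, from naïve-like through margin-like and neurogenic-like to ganglion-like, was the same in both libraries.

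*Sema3a*, the ligand, was of the 5 classes highest in lens-like cells and next in ganglion-like cells. Lens-like cells had 99.5 (90.7 to 109) CPM in control and 109 (98.3 to 120.0) CPM in DKO, and ganglion-like cells 74.8 (69 to 81) CPM in control and 80.4 (75.9 to 85.1) CPM in DKO, and both ratios had intervals that spanned 0. The ganglion-like clusters differed in opposite directions. The *Elavl4* cluster had 54.6 CPM in control and 76.3 CPM in DKO, a log2 ratio of 0.48 (0.26 to 0.71). The *Sncg* cluster had 101 CPM in control, near the lens-like level, and 83.5 CPM in DKO, a log2 ratio of -0.27 (-0.46 to -0.09). Margin-like cells had 12.9 (10.2 to 16.2) CPM in control and 21.1 (18.1 to 24.5) CPM in DKO, a log2 ratio of 0.71 (0.31 to 1.12), and neurogenic-like cells 11.9 (9.92 to 14.2) CPM in control and 17 (14.5 to 19.9) CPM in DKO, a log2 ratio of 0.51 (0.17 to 0.86). Naïve-like cells were lowest of the 5 classes, with 4.76 (4.08 to 5.52) CPM in control and 9.78 (8.56 to 11.1) CPM in DKO, a log2 ratio of 1.04 (0.75 to 1.33) that just passed 2-fold. Of 6 naïve-like subclusters the *Sema3a* interval lay above 0 in 2, the one led by *Tagln* and *Lor*, at 2.45 (1.47 to 3.56), and the one led by *Aldh1a1* and *Crhbp*, at 0.98 (0.55 to 1.41). It spanned 0 in the other 4, with 0.11 (-0.77 to 0.95) in the largest, led by histone genes, and -1.05 (-3.51 to 0.81) in the *Ung* subcluster. *Plxna2* was likewise at 2.02 (1.65 to 2.4) in the *Tagln* subcluster, 0.22 (-0.03 to 0.47) in the histone subcluster and 0.08 (-0.29 to 0.43) in the *Ung* subcluster. *Gja1* in the *Tagln* subcluster had 26 CPM in control and 237 CPM in DKO, and its part in these ratios was not tested. The naïve-like *Sema3a* ratio was 0.07 and the neurogenic-like ratio -0.62 with the libraries merged without integration, and the naïve-like ratio passed 2-fold in 9 of 14 alternatives. By cluster the neurogenic-like *Sema3a* ratio was 0.10 (-0.29 to 0.49) in the *Fam110a* and 0.85 (0.02 to 1.68) in the *Atoh7* and *Mybl1* cluster.

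Since the Cre acts in part of the retina, DKO cells were split by *Six3*. For this split DKO cells were clustered alone, at resolution 1, which gave 28 subclusters other than those named above. Those in which *Six3* was below 50% of its level in control cells of that class held 787 of 2679 naïve-like and 650 of 953 margin-like cells. *Six3* had 301 CPM in control, 335 CPM in the other DKO and 134 CPM in the *Six3*-low DKO naïve-like cells. *Six6* is null in all DKO cells, so the 2 DKO sets compare DKO cells with more and with less *Six3* within 1 library. The neurogenic-like, ganglion-like and lens-like classes had under 50 such cells and were not split. A cluster led by *Fabp7*, with 4 control and 946 DKO cells, stayed unnamed, so it entered no class ratio and no side of this split. Its *Six3* level in DKO was 87 CPM, below that of the *Six3*-low naïve-like cells.

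*Plxna2* followed the split in both classes. In naïve-like cells it had 29.1 (27.4 to 30.9) CPM in control, 38.1 (35.2 to 41.3) CPM in other DKO and 64.5 (58.8 to 70.6) CPM in *Six3*-low DKO cells, and the log2 ratio of the last to the second was 0.76 (0.58 to 0.93). In margin-like cells it had 17 (13.8 to 20.7), 16.6 (11.9 to 22.6) and 50.7 (45 to 56.9) CPM in the same order, a log2 ratio of 1.61 (1.13 to 2.12). Margin-like DKO cells that were not *Six3*-low had control levels of *Plxna2* within counting error. *Robo2* went the other way, with log2 ratios of -0.53 (-0.78 to -0.28) in naïve-like and -0.50 (-0.95 to -0.04) in margin-like cells.

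*Dcc* did not follow the split in naïve-like cells. Its level there was 2.72 (2.21 to 3.31) CPM in control, 7.06 (5.82 to 8.48) CPM in other DKO and 7.31 (5.47 to 9.56) CPM in *Six3*-low DKO cells. In margin-like cells the levels were 2.58 (1.44 to 4.26), 16.2 (11.6 to 22.1) and 24.5 (20.6 to 28.9) CPM, so that both DKO sets stood above control. *Sema3a* likewise had near equal levels in both naïve-like DKO sets, 9.84 and 9.65 CPM, and a log2 ratio of 0.82 (0.27 to 1.4) between the margin-like sets. *Robo1* had a log2 ratio of 1.0 (0.37 to 1.68) between the margin-like sets, and *Slit2* -0.10 (-0.25 to 0.05) and -0.19 (-0.37 to -0.01) in naïve-like and margin-like cells.

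**Figure D4:**
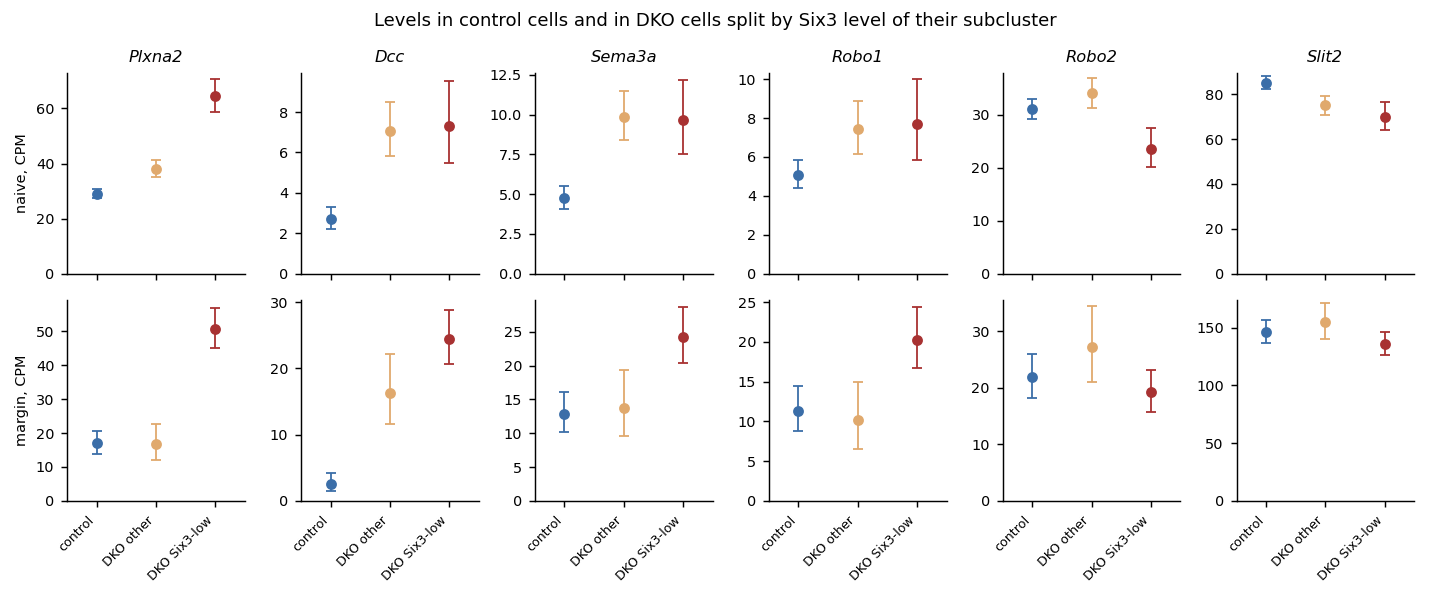
Levels (CPM, linear axes from 0, exact 95% Poisson intervals) of 6 genes in naïve-like cells (top row) and margin-like cells (bottom row), for control cells, DKO cells of other subclusters and DKO cells of *Six3*-low subclusters. *Plxna2* was highest in *Six3*-low cells of both classes, while *Dcc* in naïve-like cells was at 7.06 and 7.31 CPM in the DKO sets and 2.72 CPM in control.

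Other markers moved with the split. The 8 pigment epithelium markers summed to 858, 168 and 2393 CPM in control, other DKO and *Six3*-low DKO margin-like cells. The 9 naïve progenitor markers summed to 5016, 4819 and 2729.8 CPM in naïve-like cells. Their part in the differences between the DKO sets was not tested.

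The share of cells with a UMI gave the same picture for the main members once depth was made equal. Cells were thinned to 2000 UMIs, since DKO cells were shallower. In ganglion-like cells *Robo2* was then found in 41.8% (38.7 to 45.1) of the control cells and 34.6% (32.5 to 36.7) of DKO cells (unthinned 85.6% and 68.5%, with 10 and 37 shallower cells left out). *Slit2* was in 28.2% (25.4 to 31.2) and 20.7% (18.9 to 22.5) of these cells (unthinned 72.5% and 46.8%). *Dcc* in neurogenic-like cells was in 13.9% (12.1 to 15.8) of the control cells and 22.6% (20.6 to 24.6) of DKO cells (unthinned 36.7% and 43.5%, with 20 and 68 left out), and *Plxna2* in naïve-like cells in 5.26% (4.56 to 6.03) and 8.76% (7.71 to 9.9) (unthinned 21.7% and 25.1%, with 38 and 42 left out).

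Red blood cells, which should lack these genes, served as the background of free RNA. Their median depth was 8455 UMIs in control and 6331 in DKO, against 8509.5 and 6799 in ganglion-like, 6728 and 4836 in neurogenic-like and 8540 and 7393 in naïve-like cells. After thinning, *Robo2* was in 0.0941% (0.00238 to 0.523) of control red blood cells and 0.186% (0.00471 to 1.03) of DKO ones and *Slit2* in 0.188% (0.0228 to 0.678) and 0.186% (0.00471 to 1.03). The shares in the retinal classes above stood well over these. In neurogenic-like cells *Nrp1* was in 0.288% (0.0786 to 0.737) of the control cells and 2.34% (1.68 to 3.17) of DKO cells (unthinned 0.853% and 4.55%), and in 0% (0 to 0.346) and 0% (0 to 0.685) of red blood cells, so the control share overlapped the background and the DKO share did not.

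Ligand and receptor were also found in the same ganglion-like cells. After thinning, *Slit2* and *Robo2* were both detected in 13.3% (11.2 to 15.6) of control cells, where the product of their shares was 11.8%, and in 8.07% (6.93 to 9.32) of DKO cells, where it was 7.14%, so each product lay within the interval. *Sema3a* and *Nrp1* were both in 4.46% (3.23 to 5.98) of the control cells and 4.32% (3.49 to 5.29) of DKO cells, above the products of 3.13% and 3.1%. *Robo2* and *Dcc* were both in 8.28% (6.6 to 10.2) of the control cells and 3.6% (2.84 to 4.49) of DKO cells, where the products were 7.73% and 4.5%, the second just above its interval. For *Slit2* and *Robo2*, and for *Robo2* and *Dcc*, both the share and the product were smaller in DKO than in control. The products were taken over the *Elavl4* and *Sncg* clusters pooled, which differ in these genes. In control *Nrp1* had 73.8 and 242 CPM, *Sema3a* 54.6 and 101 CPM and *Dcc* 139 and 18.1 CPM in that order. The part of this pooling in the gaps between share and product was not tested.

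The other genes of these pathways were taken from a list of 77, of which 76 were counted, by the same rule and beside the same shares of all genes. In naïve-like cells 56 entered, 3 were higher in DKO and 1 was lower. In neurogenic-like cells 55 entered, with 4 higher and 1 lower, and in ganglion-like cells 58 entered, with 6 higher and none lower. In margin-like cells 46 entered, with 2 higher and 2 lower, and in lens-like cells 36 entered, with 4 higher and 1 lower. Of all genes entered, 2.37%, 3.35%, 4.02%, 2.77% and 3.08% were higher in these classes, in the order given. The shares that were lower were 0.982%, 1.51%, 1.25%, 1.06% and 1.43%. *Nrp2*, the second neuropilin and also a receptor of class 3 semaphorins, passed 2-fold in the 4 retinal classes. It had 4.32 CPM in control and 21.9 CPM in DKO, a log2 ratio of 2.34 (2.08 to 2.61) in naïve-like cells, 17.9 CPM in control and 86.3 CPM in DKO, a log2 ratio of 2.27 (1.97 to 2.58) in margin-like cells, and log2 ratios of 1.97 in neurogenic-like and 1.49 in ganglion-like cells.

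Other named pathway genes differed in 1 or 2 classes. In naïve-like cells *Sema3d*, a class 3 semaphorin, had a log2 ratio of 1.9, *Draxin*, a secreted ligand of DCC, 1.02 and *Unc5a*, a netrin receptor, -1.58. In neurogenic-like cells *Nell2*, a secreted ligand of ROBO3, had 1.49, *Trim67* 1.46, *Plxnc1*, a plexin, 1.28 and *Plxnd1*, another plexin, -1.5. In ganglion-like cells *Nell2* had 48.9 CPM in control and 137 CPM in DKO, a log2 ratio of 1.49 (1.33 to 1.65), and *Chl1*, an adhesion molecule, had 1.85 CPM in control and 16.5 CPM in DKO, a log2 ratio of 3.16 (2.41 to 4.02). *Ntng1*, a membrane-bound netrin, had a log2 ratio of 1.71 and *Plxna4*, a plexin, 1.69 in the same cells. In margin-like cells *Unc5b*, a netrin receptor, had 65.9 CPM in control and 22 CPM in DKO, a log2 ratio of -1.58 (-1.85 to -1.32), while *Sema4d* had -1.37 and *Vegfa*, a ligand of neuropilins, 1.01. In lens-like cells *Nrcam*, an adhesion molecule, had 41 CPM in control and 11.5 CPM in DKO, a log2 ratio of -1.83 (-2.35 to -1.35), and *Draxin*, *Crmp1*, *Dpysl3* and *Sema3d* had 1.36, 1.23, 1.16 and 1.06.

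The genes most like a member in pattern were found by Pearson correlation of log2(CPM + 1) over 38 groups, each a cluster in 1 library with at least 50 cells, among 9572 genes. The groups share libraries and differ in depth, so these values are a description. For *Slit2* they were *Igf1r* (0.951), *Sulf2* and *Slc39a6*, and for *Robo1* *Kalrn* (0.967), *Afap1* and *Cadm4*. *Robo2* was nearest to *Thsd7a* (0.952), *Gse1* and *Syt1*, and *Dcc* to *Chrna4* (0.951), *Srrm4* and *Phf21b*. For *Nrp1* the nearest were *Islr2* (0.905), *Atp8a2* and *Mindy2*, for *Plxna2* *Sel1l3* (0.899), *Adgrb1* and *4930447C04Rik*, and for *Sema3a* *Ncoa7* (0.873), *Amph* and *Fgf12*. Among the members themselves the closest pairs were *Robo1* and *Dcc* (0.881), *Slit1* and *Dcc* (0.868) and *Robo2* and *Dcc* (0.832) and the lowest were *Ntn1* with *Robo3* and with *Nrp1* (-0.162 each).

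Smaller classes held some members at high levels. Photoreceptor-like cells, named from 6 of 6 markers in 89 control and 114 DKO cells, had *Robo2* at 665 (593 to 743) CPM in control and 608 (537 to 686) CPM in DKO, its highest level in any class of either library, with a log2 ratio of -0.13 (-0.37 to 0.11). They had *Slit1* at 51.3 (32.9 to 76.4) CPM in control and 23 (11 to 42.3) CPM in DKO, with overlapping intervals. Amacrine or horizontal-like cells, 130 in control and 194 in DKO, had *Slit2* at 198 (167 to 232) CPM in control and 216 (186 to 250.1) CPM in DKO, and *Plxna2* at 99.5 (78.1 to 125) CPM in control and 116 (93.8 to 141) CPM in DKO, for both the highest level of any class in their library.

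Macrophage-like cells had 11 UMIs of *Nrp1* in control (55 cells) and 82 in DKO (162 cells), which are 36.5 (18.2 to 65.3) CPM in control and 114 (90.9 to 142) CPM in DKO, a log2 ratio of 1.65 (0.73 to 2.7). In this class 5.22% of the genes entered were at or past 2-fold higher in DKO, and *Nrp1*, also a receptor of VEGF, reached 50 UMIs only with the DKO counts.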

How the data were processed

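Cells of eyecups were captured and sequenced with a 10x 3′ kit (version 3), 1 library per genotype. The authors mapped the reads with Cell Ranger 3.1.0 to mm10, per the submitters' processing notes and the labels, and deposited UMI counts per gene and cell as whole numbers without normalization, of which no column was left unused. From these counts, cells were retained at over 200 and below 6000 genes detected with mitochondrial UMIs below 20% (9822 of 10315 control and 12146 of 12672 DKO barcodes), normalized, integrated and clustered in Seurat 5.3.0 (R 4.3.3; 2000 variable features, 20 dimensions, resolution 0.5). The members, the pathway genes, *Six3*, *Six6*, hemoglobin and sex-linked genes did not serve as features, and resolution 1 gave the subclusters, while DKO cells clustered alone at resolution 1 gave those of the *Six3* split. A name needed 3 detected markers, 75% of the markers above their level elsewhere and a mean log2 difference of 0.5 (pseudocount 20 CPM), a rule set after the clusters had been seen. Scrublet (scanpy 1.11.5) marked 300 control and 329 DKO cells as doublets at the lower of the automatic thresholds, and they were kept. Cluster 15, mostly doublets, and 3 other clusters stayed unnamed. The unnamed clusters held 14.0% of control and 21.4% of DKO cells, and these cells entered no class.

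Levels are summed UMIs per 1000000 UMIs with exact 95% Poisson intervals, ratios have intervals from the exact binomial split, shares of cells exact binomial intervals, and 3 UMIs was the floor for a fold. The ratio script was tested on simulated data. Python 3.11.15, numpy 2.4.6, scipy 1.17.1, pandas 2.3.3 and matplotlib 3.10.9 were used. Cells of a library are not replicates, so no p-value was computed. The class totals ran from 3649834 UMIs (DKO lens-like) to 36791298 UMIs (control naïve-like). Named genes were the 10 members, up to 4 pathway genes per class and direction with the largest ratios past 2-fold, and the 3 genes most like each member with at least 1000 UMIs, while subcluster and marker genes were named to identify cells, and the subclusters and smaller classes described were chosen after their values were seen. The members and lists were chosen with earlier results of these data known. Promoter letters came from RefSeq (GRCm38.p6), where 7 of 10 members had entries after those on chromosome 18, which carries *Dcc*, were left out.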

Additional observations from a re-analysis of the deposited data

Results flagged for a closer look

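*Slit1*, *Slit2* and *Dcc* are given here because their DKO levels lay above control in some cell classes and below it in others, with counting intervals on opposite sides of 0. The difference between classes was not tested, since each genotype had 1 library. *Slit1* had a log2 ratio of 0.41 in neurogenic-like and -0.51 in ganglion-like cells. *Slit2* had 0.44 in neurogenic-like and 0.53 in lens-like cells, and -0.21 in naïve-like and -0.71 in ganglion-like cells. In lens-like cells the median of all genes was 0.21 and the 8 lens markers summed to 108783 CPM in control and 47219 CPM in DKO, and their part in the ratio was not tested. *Dcc* had 1.39 in naïve-like, 0.76 in neurogenic-like and 3.09 in margin-like cells, and -0.27 in ganglion-like cells. Within the ganglion-like clusters the *Dcc* ratio was -0.09 (-0.24 to 0.06) in the *Elavl4* and 0.50 (0.09 to 0.93) in the *Sncg* cluster, so the class sign was not found in either beyond counting error. The class ratio itself stayed below 0 in all 12 alternatives, between -0.94 and -0.27. With the libraries merged without integration the neurogenic-like ratios were -0.24 for *Slit2* and -0.18 for *Dcc*, so in that class the opposite sign to ganglion-like cells was lost.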

How the results depend on the processing

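No paired analysis was possible because only 1 library was made of either genotype. Of 396 values of single members under the alternatives, 342 lay within the counting interval of the reported value. Naïve-like cells had 0 members higher at resolution 1 and when merged without integration (median log2 ratio 0.18), and 4 with a minimum of 10 UMIs (median 0.96). Neurogenic-like cells had 1 when merged (median -0.16), thinned to 2000 UMIs or with a minimum of 200 UMIs. Ganglion-like cells had 0 at resolutions 0.3 and 1, when merged (median -0.13), with the genes the study names left out of the clustering (median -0.069) and without subclusters nearly lacking control cells (median -0.067), and 1 when thinned (median -0.20), centred on the median gene or with a minimum of 200 UMIs (median -0.084). Margin-like cells had 1 when thinned or with 200 UMIs, 1 lower with 10 UMIs, and a median of 0.22 when merged. Lens-like cells had 1 higher with 10 UMIs and a median of -0.030 when thinned. The UMI minimum changes which members enter, and the cause of the other shifts was not tested. No share of all genes is given beside the counts under these alternatives, so they describe shifts in the calls alone. With a minimum of 10 UMIs a call can rest on few counts. Leaving out subclusters nearly lacking control cells and counting the *Fabp7* cluster as naïve-like were chosen after seeing the data. *Dcc*, *Nrp1* and *Plxna2* in margin-like and *Nrp1* in neurogenic-like cells were past 2-fold in each alternative where they entered.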
